A study of Mus musculus with 3 samples.

Results

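A set of 10 genes of liver macrophages was followed across the series, and each was found as 1 row of the deposited table of log ratios among 16390 genes named there. The 10 members were chosen by gene name, with earlier results of these data known. Of them, 5 mark resident Kupffer cells (Marco, Vsig4, Cd5l, Clec4f and Timd4). Another 3 are shared by macrophages in general (Adgre1, listed under its older name Emr1, Csf1r and Cd68). The last 2 belong to activated or recruited macrophages (Chil3, listed as Chi3l3, and Mmp12). Of the 10 members, 8 had a value on all 3 arrays, as did 10179 of the named genes. Mmp12 had a value on 2 arrays and Chil3 on 1, and the rule by which cells of the table were left blank is not given in the sources used here.

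Kupffer cells are the macrophages that line the sinusoids of the liver, where they clear bacteria, complement-coated particles and worn-out red blood cells from portal blood. They arise before birth and are maintained largely in place, with survival signals passing through the receptor encoded by Csf1r. During injury, blood monocytes enter the liver and become macrophages that carry general macrophage markers but at first lack the full set of resident markers. Lipopolysaccharide (LPS), a bacterial cell wall component, activates macrophages, and D-galactosamine (GalN) sensitises hepatocytes to the cytokines they release.

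The arrays compared liver RNA of female C57BL/6 mice with 2 dyes. The Cy3 channel held TMX-/- liver 24 h after intraperitoneal LPS (3 ng) with GalN (10 mg) on one array, wild-type liver after the same injection on another, and untreated TMX-/- liver on the last. The Cy5 channel of every array held untreated wild-type liver, so the 3 ratios share this reference group. Whether the same RNA preparation served all 3 arrays is not stated by the labels. TMX is a thioredoxin-related protein of the endoplasmic reticulum membrane, and the labels say neither how its gene was disrupted nor whether a channel held 1 mouse or a pool. Each group had 1 array, so no difference was tested, no p-value is given, and 2-fold (1 on the log2 scale) serves as the threshold for counts.

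All values are log2 ratios to untreated wild-type liver, centred on the median of the 10179 genes. The only error at hand is the SD between rows of the same gene, which was 0.76 in treated TMX-/-, 0.42 in treated wild-type and 0.42 in untreated TMX-/- liver over 81 genes with 2 rows. It leaves out differences between mice. The direction, sample over untreated wild-type, is not stated by the labels. It is taken from Tmx1, the targeted gene, which stood at -3.88 in treated TMX-/-, 0.59 in treated wild-type and -2.96 in untreated TMX-/- liver. With the opposite numerator every "higher" below would read "lower". The spread of the arrays also differed, with an SD over genes of 1.04, 0.48 and 0.40 in the same order, and this bears on every comparison between arrays.

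Promoter sequences from RefSeq's table (GRCm38.p6) were used for 8 of the 10 members. Csf1r was left out of this search, and no sequence was found for Adgre1. They are shown for 5 genes that passed 2-fold on at least 1 array, all with a marked motif. Each is given as the 250 bases before the transcription start, read 5′ to 3′ on the strand of the gene. Cd68 and Timd4 also passed 2-fold on at least 1 array and are not shown. Capitals mark GAGGAA or its complement TTCCTC, the core bound by PU.1, the transcription factor that specifies myeloid cells, and in Chil3 the STAT-type letters TTCNNNGAA.
Marco, chr1:120505025-120505274, minus strand: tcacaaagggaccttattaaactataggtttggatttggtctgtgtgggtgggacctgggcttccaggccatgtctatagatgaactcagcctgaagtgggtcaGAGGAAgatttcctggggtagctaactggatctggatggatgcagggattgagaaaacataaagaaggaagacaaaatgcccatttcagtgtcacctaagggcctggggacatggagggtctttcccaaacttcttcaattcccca
Vsig4, chrX:96293439-96293688, minus strand: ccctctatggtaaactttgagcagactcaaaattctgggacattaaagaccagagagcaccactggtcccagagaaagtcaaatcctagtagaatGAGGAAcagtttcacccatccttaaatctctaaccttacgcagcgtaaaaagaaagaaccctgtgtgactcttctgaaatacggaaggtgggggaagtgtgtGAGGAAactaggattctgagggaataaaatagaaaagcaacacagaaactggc
Cd5l, chr3:87357631-87357880, plus strand: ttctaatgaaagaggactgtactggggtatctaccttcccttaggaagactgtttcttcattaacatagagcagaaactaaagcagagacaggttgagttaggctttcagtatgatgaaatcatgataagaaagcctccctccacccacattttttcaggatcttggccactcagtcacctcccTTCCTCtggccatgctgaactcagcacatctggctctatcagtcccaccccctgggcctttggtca
Mmp12, chr9:7344147-7344396, plus strand: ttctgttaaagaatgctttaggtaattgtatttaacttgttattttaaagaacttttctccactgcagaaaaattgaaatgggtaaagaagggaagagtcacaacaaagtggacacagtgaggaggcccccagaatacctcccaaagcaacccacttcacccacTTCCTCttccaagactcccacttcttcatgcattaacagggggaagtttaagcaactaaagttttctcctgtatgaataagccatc
Chil3, chr3:106167565-106167814, minus strand: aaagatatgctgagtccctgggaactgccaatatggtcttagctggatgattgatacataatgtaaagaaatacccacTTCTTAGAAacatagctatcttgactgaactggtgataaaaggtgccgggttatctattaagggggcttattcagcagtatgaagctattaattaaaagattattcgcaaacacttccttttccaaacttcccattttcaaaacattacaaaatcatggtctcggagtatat

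GAGGAA, on either strand, lay in this window in 5 of the 8 members (Marco, Vsig4, Cd5l, Cd68 and Mmp12), and in 23.3% of all 32851 windows of that length in the table. Its first base stood 146 bases before the start in Marco and 225 bases before it in Cd68. Vsig4 held it at 155 and at 53 bases. On the other strand it lay at 66 bases in Cd5l and at 86 bases in Mmp12. TTCNNNGAA, which reads the same on both strands, lay in 7.02% of windows and, of the 8 members searched, in Chil3, 172 bases before the start. The AP-1 letters TGANTCA lay in 6.75% of windows and in 2 members, Cd68 and a further start of Mmp12. No match in the members overlapped another. Clec4f and Timd4 held none of the 3 motifs, which says nothing of whether the factors act on them.

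**Figure D1:**
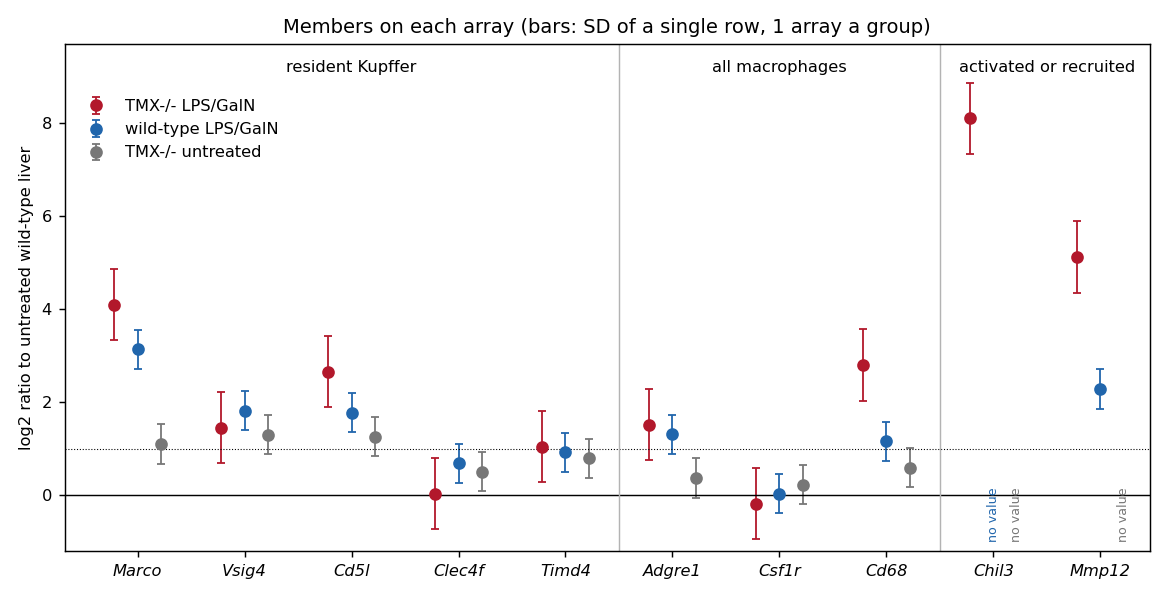
The vertical axis gives each member's log2 ratio to untreated wild-type liver on the 3 arrays, with bars of 1 SD of a single row (0.76, 0.42 and 0.42). Chil3 (8.11) and Mmp12 (5.12) stand highest on the treated TMX-/- array, and Csf1r stays within 0.23 of 0 on all 3.

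Most members were higher than in untreated wild-type liver on every array. Of the 8 members measured throughout, 6 were at least 2-fold higher in treated TMX-/- liver, where 13.6% of the 10179 genes were. In treated wild-type liver 5 of the 8 were, against 2.8% of all genes, and in untreated TMX-/- liver 3 of the 8, against 1.78%. With the arrays scaled to the same spread the counts were 3, 6 and 4 of the 8 in the same order. The share of all genes past 2-fold was not counted at that spread. The 3 in treated TMX-/- liver were then Marco (2.53), Cd68 (1.73) and Cd5l (1.64), while Adgre1 stood at 0.94, Vsig4 at 0.89 and Timd4 at 0.64. None was 2-fold lower on any array, where 13.2%, 1.75% and 0.835% of all genes were, in the same order. Since untreated wild-type liver enters all 3 ratios, its own level of macrophage RNA enters all of these counts. It does so alike where the same RNA preparation served all 3 arrays. Every sample was in Cy3 and the reference in Cy5, so a dye difference at a row also enters these counts and was not tested. In whole liver, more cells of a type and more RNA per cell cannot be told apart.

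Marco is a scavenger receptor with a collagen-like stalk that binds bacteria and particles, and it can be induced by LPS in macrophages beyond Kupffer cells. It stood at 4.10 in treated TMX-/- liver (17.1-fold), 3.13 in treated wild-type liver (8.77-fold) and 1.10 in untreated TMX-/- liver (2.14-fold). These were the ranks 8, 3 and 118 from the top among 10179 genes. The treated TMX-/- liver was 3.00 log2 above the untreated TMX-/- liver and the treated wild-type liver 2.04 above it. At equal spread these differences were 0.79, which is below 2-fold, and 2.42.

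Vsig4 encodes the complement receptor of the immunoglobulin family with which Kupffer cells capture C3-coated bacteria. Its ratio was 1.45 in treated TMX-/-, 1.81 in treated wild-type and 1.30 in untreated TMX-/- liver. Treated TMX-/- liver differed from untreated TMX-/- liver by 0.15 (SD of a row 0.67), a difference that became -1.17 at equal spread. Treated wild-type liver stood 0.52 above untreated TMX-/- liver (SD 0.38). Its rank among all genes was 695, 23 and 53, since the treated TMX-/- array had many more high genes.

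Cd5l encodes a secreted scavenger protein, also called AIM, that supports macrophage survival. It stood at 2.65 in treated TMX-/-, 1.77 in treated wild-type and 1.25 in untreated TMX-/- liver. Like Vsig4 it was already more than 2-fold higher in the untreated TMX-/- liver, and unlike Vsig4 it stood 1.40 above that level after LPS/GalN in TMX-/- liver, a difference that turned to -0.35 when the arrays were scaled to the same spread.

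Clec4f, a galactose-binding C-type lectin found in Kupffer cells of rodents, was the resident marker closest to 0. It stood at 0.03 in treated TMX-/-, 0.68 in treated wild-type and 0.50 in untreated TMX-/- liver. Timd4, a receptor for phosphatidylserine that takes part in the uptake of apoptotic cells and marks long-lived resident macrophages, stood at 1.04, 0.92 and 0.79 in the same livers. Neither gene separated a treated liver from the untreated TMX-/- liver by more than the SD of a row. The 5 resident markers ranged from 0.03 to 4.10 in treated TMX-/-, 0.68 to 3.13 in treated wild-type and 0.50 to 1.30 in untreated TMX-/- liver. At equal spread these ranges were 0.02 to 2.53, 0.91 to 4.16 and 0.79 to 2.06, so which treated liver had the wider range turned with the scaling.

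Among the genes shared by macrophages, Adgre1 and Cd68 were high after treatment and Csf1r was not. Adgre1, an adhesion receptor whose antibody is the classical label of mouse macrophages, stood at 1.52 in treated TMX-/-, 1.31 in treated wild-type and 0.37 in untreated TMX-/- liver. Cd68, a lysosomal glycoprotein of phagocytes, stood at 2.80, 1.16 and 0.59. Both were therefore 2-fold higher in the 2 treated livers and below 2-fold in the untreated TMX-/- liver.

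Csf1r, the receptor for the growth factors CSF1 and IL-34, stood at -0.19 in treated TMX-/-, 0.03 in treated wild-type and 0.23 in untreated TMX-/- liver. All 3 values lay within the SD of a row from 0, and the value in treated wild-type liver changed sign (-0.02) without centring. Csf1r lay below Adgre1 on every array, by -1.70 in treated TMX-/-, -1.28 in treated wild-type and -0.14 in untreated TMX-/- liver, where the SD of such a difference was 1.08, 0.60 and 0.60.

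The 2 genes of activated or recruited macrophages had the highest ratios of all members in treated TMX-/- liver. Chil3 encodes Ym1, a chitinase-like secreted protein of alternatively activated macrophages that neutrophils and monocytes also make. It stood at 8.11 in treated TMX-/- liver, a 276-fold ratio and the highest of 11755 named genes with a value on that array, and had no value on the other 2 arrays. The next gene was the monocyte chemokine Ccl7 at 5.96. Of the 928 table rows with a value on that array alone, 46.2% were at least 2-fold higher and the median was 0.90, so such rows ran high in general and Chil3 was the highest of them.

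Chil4, the neighbouring gene and a close copy of Chil3, stood at 0.61 in treated wild-type and 1.05 in untreated TMX-/- liver and had no value in treated TMX-/- liver. Probes may not separate the 2 genes, and the probe sequences were not used here. The value of Chil3 therefore stands for Chil3 or its close copies.

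Mmp12 encodes macrophage elastase, a secreted protease of activated macrophages. It stood at 5.12 in treated TMX-/- liver (34.8-fold) and 2.28 in treated wild-type liver (4.86-fold), and had no value in untreated TMX-/- liver. Among all named genes with a value it ranked 7 of 11755 and 53 of 12338. Of the 1179 rows with values on the 2 treated arrays alone, 26.0% and 18.1% were at least 2-fold higher, so these rows too ran higher than the rest.

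**Figure D2:**
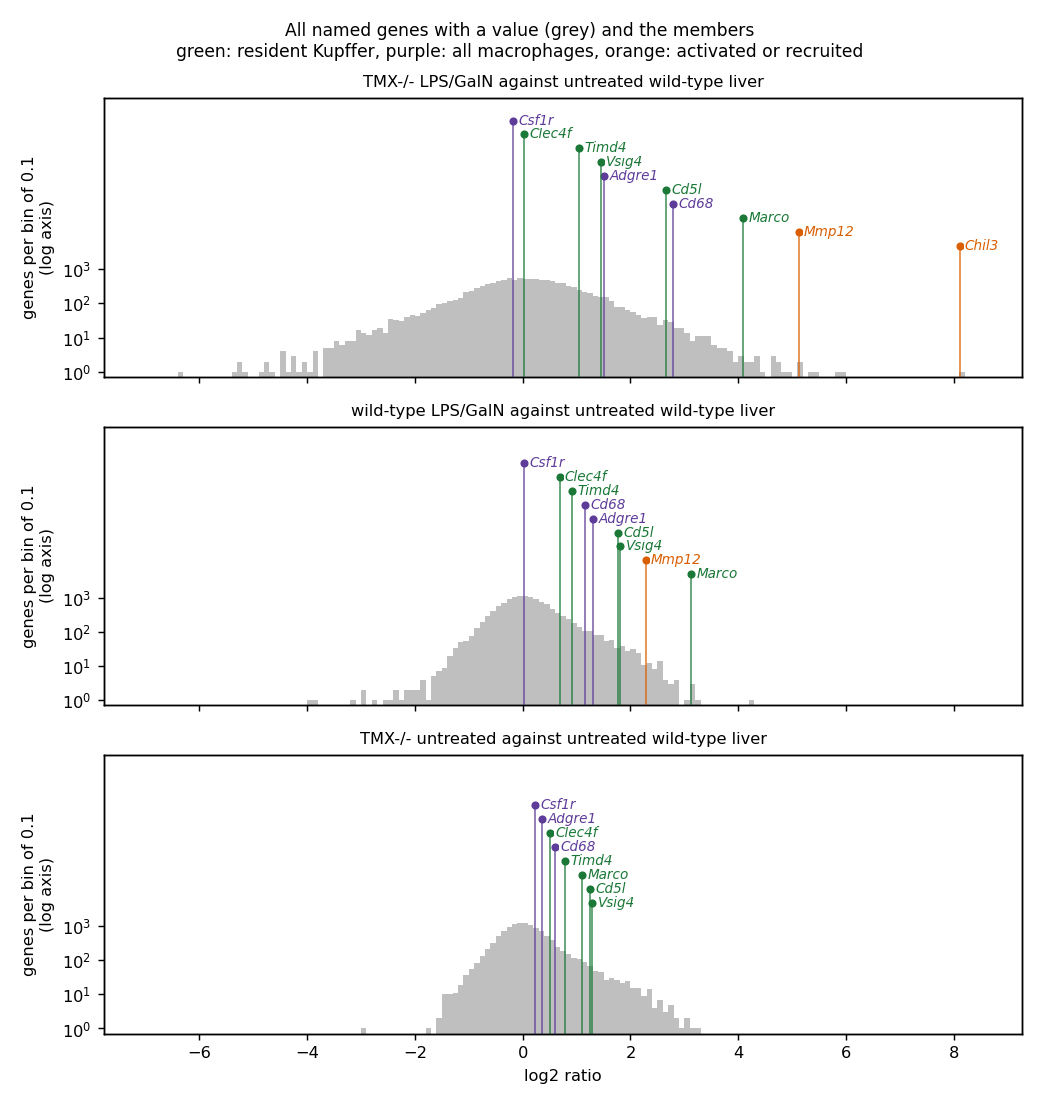
Grey bars count the named genes in bins of 0.1 log2 on a log axis, and coloured lines place the members; the heights of the lines carry no value. In treated TMX-/- liver Chil3 stands apart from all genes, whereas Vsig4 and Timd4 lie inside a distribution whose SD is 1.04.

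Resident and activated genes were set against each other on each array. The median of the 5 resident markers was 1.45 in treated TMX-/- liver, against 6.61 for Chil3 and Mmp12, a difference of -5.17. In treated wild-type liver it was 1.77, against 2.28 for Mmp12 alone, a difference of -0.51. With Mmp12 alone in treated TMX-/- liver the difference was -3.67. In untreated TMX-/- liver the resident median was 1.10 and neither activated gene had a value. At equal spread the resident medians were 0.89 in treated TMX-/-, 2.35 in treated wild-type and 1.74 in untreated TMX-/- liver, so their order turned with the scaling. Chil3 and Mmp12 lack values on some arrays, and rows with such blanks ran high where they had a value. All members were also chosen with earlier results of these data known. Both the blanks and the choice bear on this contrast, which is a description of the measured values alone.

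**Figure D3:**
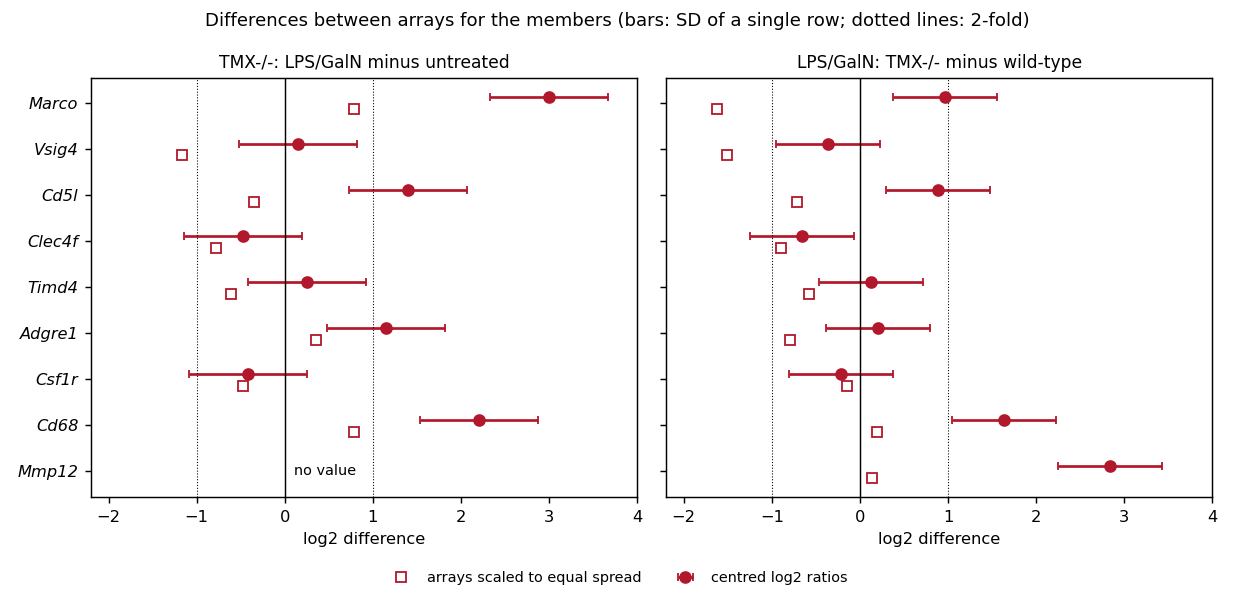
Filled points give the log2 difference between 2 arrays for each member with bars of 1 SD of a single row (0.67 on the left, 0.59 on the right), and open squares give it after all arrays were scaled to the same SD. Cd68 stays above 0 and Clec4f and Csf1r stay below 0 under both scalings in both panels, with the filled points of Csf1r within the bar of 0. The SD was not computed for the open squares.

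The response to LPS/GalN in TMX-/- liver was taken as treated minus untreated TMX-/- liver, in which untreated wild-type liver cancels where one RNA preparation served both arrays. Marco (3.00), Cd68 (2.21), Cd5l (1.40) and Adgre1 (1.15) were at least 2-fold higher in the treated liver, 4 of the 8 members measured on both arrays, where 11.4% of all genes were. Timd4 (0.25) and Vsig4 (0.15) lay near 0, Csf1r was at -0.41 and Clec4f at -0.47, all within the SD of 0.67. The median of the resident markers was 0.25 and that of all genes -6.95e-04. After the arrays were scaled to the same spread, Marco stood at 0.79, Cd68 at 0.79 and Adgre1 at 0.35, while Cd5l turned to -0.35, Timd4 to -0.61 and Vsig4 to -1.17.

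In treated livers the TMX-/- liver was set against wild-type liver. Mmp12 was 2.84 higher (7.16-fold) and Cd68 1.64 higher (3.12-fold), 2 of 9 members with both values, against 10.1% of the 10957 genes with both. Marco (0.97), Cd5l (0.88), Adgre1 (0.21) and Timd4 (0.12) were below 2-fold, and Csf1r (-0.21), Vsig4 (-0.37) and Clec4f (-0.66) were on the other side of 0. The resident median was 0.12, against 0.01 for all genes. With the arrays at the same spread all 5 resident markers lay below 0, with a median of -0.89, from Marco at -1.63 to Timd4 at -0.57, and Mmp12 stood at 0.14 and Cd68 at 0.19. Which of the treated livers held more Marco, Cd5l, Timd4 or Adgre1 RNA thus turned with the scaling, whereas Vsig4, Clec4f and Csf1r were lower and Mmp12 and Cd68 higher in the TMX-/- liver under both. Of these, Csf1r and Vsig4 as centred lay within the SD of a row (0.59). That SD was not computed at equal spread, where Csf1r (-0.15), Mmp12 (0.14) and Cd68 (0.19) lay close to 0. The members past 2-fold at equal spread were Marco and Vsig4 (-1.51), both lower in the TMX-/- liver.

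Treated wild-type liver was also set against untreated TMX-/- liver, which differs in genotype. Untreated wild-type liver cancels here too where the same RNA preparation served both arrays. Marco was 2.04 higher, the rank 10 of 10179 genes, and the only one of the 8 members past 2-fold, where 2.08% of genes were. Adgre1 (0.94), Cd68 (0.57), Vsig4 (0.52), Cd5l (0.52), Clec4f (0.18) and Timd4 (0.13) lay above 0 and Csf1r (-0.20) below it, with an SD of a row of 0.38. Timd4 turned to -0.04 at equal spread. At equal spread Marco (2.42) and Adgre1 (1.15) were past 2-fold.

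The other genes of these cells came from lists that do not contain the members. Their counts include genes with a blank on 1 or 2 arrays and are read against all named genes with a value, of which 16.3% were at least 2-fold higher in treated TMX-/-, 6.81% in treated wild-type and 4.96% in untreated TMX-/- liver. Of 16 further Kupffer genes with a value, 8 were at least 2-fold higher and 1 lower in treated TMX-/- liver, with a median of 1.10. In treated wild-type liver 6 were higher and 0 lower (median 0.70), and in untreated TMX-/- liver 3 and 0 (median 0.46). At equal spread the medians were 0.68 in treated TMX-/-, 0.92 in treated wild-type and 0.73 in untreated TMX-/- liver, so their order turned with the scaling. The median difference of treated TMX-/- from treated wild-type liver turned from 0.20 to -0.34, and that from untreated TMX-/- liver from 0.44 to -0.43. Folr2, a folate receptor of tissue macrophages, stood at 2.15, 1.20 and 1.13 in these livers. Spic, the transcription factor of iron-recycling macrophages, stood at 2.15 in treated TMX-/-, 0.67 in treated wild-type and 1.07 in untreated TMX-/- liver. Cd163, the haemoglobin scavenger receptor, led the list in treated wild-type liver at 1.37. Its lowest value on the 3 arrays was in treated TMX-/- liver, at 0.62. The lowest genes of the list in treated TMX-/- liver were C6 (-1.36, the 1 counted as lower), Adgre4 (-0.79) and Hpgd (-0.25). Of the 16 genes, 12 lay above 0 there. Id1 and Id3, inhibitors of DNA binding that Kupffer cells use but other liver cells also express, were among the lowest in treated wild-type liver (-0.35 and -0.60), while Id1 was the highest in treated TMX-/- liver (2.83).

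Further macrophage receptors had higher centred ratios in treated TMX-/- liver than in the other 2. Of 17 with a value, 13 were at least 2-fold higher there, 4 in treated wild-type and 4 in untreated TMX-/- liver, with medians of 2.13, 0.48 and 0.20. The median difference of treated TMX-/- from treated wild-type liver was 1.16, and 0.27 at equal spread, and from untreated TMX-/- liver it was 1.5, and 0.40 at equal spread. The LPS co-receptor gene Cd14 stood at 3.46 and the immunoglobulin receptor gene Fcgr1 at 3.09 in treated TMX-/- liver. Fcgr4, another receptor for immunoglobulin G, led in treated wild-type (1.76) and untreated TMX-/- liver (1.69). Mrc1, the mannose receptor, which sinusoidal endothelium also carries, was the lowest in all 3, at -0.45, -0.26 and -0.43.

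Of the ligands, receptors and transcription factors around CSF1, 8 had a value in treated TMX-/- liver, of which 4 were 2-fold higher and 1 lower. The highest was Csf3r at 2.66. Csf1, a ligand of the CSF1 receptor, stood at -0.23 in treated TMX-/- and at -0.34 in treated wild-type liver. Il34, which encodes the other ligand, stood at 0.67 in treated TMX-/-, 0.98 in treated wild-type and 0.20 in untreated TMX-/- liver. Spi1, which encodes PU.1, stood at 1.70 in treated TMX-/- liver and -0.92 in untreated TMX-/- liver. Maf, a factor of resident macrophages, was the lowest at -1.02 in treated TMX-/- liver and stood at -0.89 in untreated TMX-/- liver. In treated wild-type liver 1 of 8 was 2-fold higher, Irf8, a factor of monocyte development, at 1.10. In untreated TMX-/- liver it was 1 of 9, the receptor subunit gene Csf2ra at 1.20.

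Genes of activated and scar-associated macrophages stood beside Chil3 and Mmp12. Of 16 with a value in treated TMX-/- liver 11 were 2-fold higher and 1 lower (median 1.64), led by the monocyte chemokine Ccl2 (5.81), the protease inhibitor Timp1 (4.08) and the galectin Lgals3 (3.86). Arg1, an arginase of alternatively activated macrophages that hepatocytes express far more, was the one lower at -1.40. In treated wild-type liver 3 of 14 were 2-fold higher (median 0.53) and in untreated TMX-/- liver 2 of 12 (median -0.05). Over the 10 genes of this list on all 3 arrays the medians were 2.23 in treated TMX-/-, 0.20 in treated wild-type and -0.05 in untreated TMX-/- liver. Between treated TMX-/- and treated wild-type liver 9 of 12 were 2-fold higher and 1 lower, with a median difference of 1.84 that was 0.79 at equal spread.

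Markers of other cells moved with these genes, and their part in the members' ratios was not tested. In treated TMX-/- liver monocyte genes had a median of 1.97 (5 of 8 at least 2-fold higher, Ccr2 at 4.18) and neutrophil genes one of 2.47 (5 of 6 higher, S100a9 at 4.45, but Ly6g at -2.50). In treated wild-type liver the medians were 0.71 (1 of 5 higher) and 0.82 (3 of 7), and in untreated TMX-/- liver 0.71 (0 of 5) and -0.07 (0 of 6). Over the 4 monocyte genes with a value on all 3 arrays the medians were 1.5, 0.29 and 0.37, in the order treated TMX-/-, treated wild-type and untreated TMX-/- liver. Between the treated livers the median difference at equal spread was 0.19 over 5 monocyte genes and -0.01 over 6 neutrophil genes. Hepatocyte genes ran the other way, with medians of -1.82 (6 of 9 at least 2-fold lower), -0.27 (4 of 9) and -0.53 (0 of 9). Csf3r, the receptor for a granulocyte growth factor, counts in both the neutrophil list and the one around CSF1. Stellate cell genes had medians of 1.53, 0.54 and 0.18, and T and NK cell genes had medians of 0.79, 0.70 and 0.69 over 9, 11 and 7 genes. Over the 6 T and NK cell genes on all 3 arrays the medians were 1.36, 0.66 and 0.73. At equal spread the medians over all T and NK cell genes with a value were 0.49, 0.93 and 1.10, so their order turned with the scaling. B cell genes stood at 1.03, 0.07 and 0.37, with values for 2, 3 and 2 genes. Sinusoidal endothelial genes, which share the niche of Kupffer cells, had medians of 0.24, 0.00 and 0.07. In treated TMX-/- liver 2 of 7 were at least 2-fold higher, Lyve1 (1.72) and Pecam1 (1.37), and 1 was lower, Ehd3 (-1.57).

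**Figure D4:**
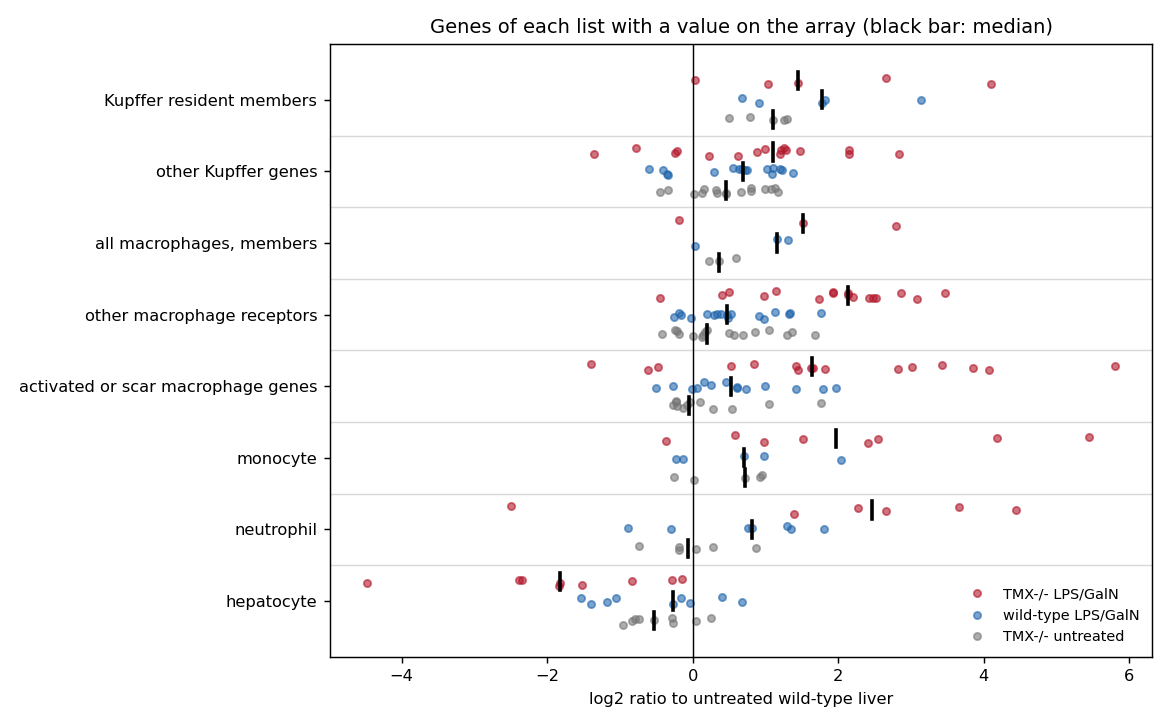
Each point is a gene's log2 ratio to untreated wild-type liver and each black bar the median of its list on that array. The receptor, activated, monocyte and neutrophil lists lie to the right in treated TMX-/- liver, and the hepatocyte list lies to the left (median -1.82).

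The genes with ratios most like the members were sought among the 10179 by distance over the 3 arrays, which is 3 values per gene. Nearest to the mean of the resident markers (1.85 in treated TMX-/-, 1.66 in treated wild-type and 0.99 in untreated TMX-/- liver) lay Ly86 at a distance of 0.19 log2. It encodes MD-1, a partner of the LPS-binding receptor RP105. Cd300e (0.27), a receptor of monocytes, Thy1 (0.30), Pfkfb3 (0.30) and Aif1 (0.33), which encodes the macrophage protein IBA1, followed. No gene lay so near Marco: the nearest were the cell cycle inhibitor gene Cdkn1a (0.93), the eosinophil-type ribonuclease gene Ear6 (1.19) and Ms4a6b (1.60).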

How the data were processed

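The authors deposited 1 table of log ratios for 3 microarrays with 2 channels, read here as log2. Its logarithm base, numerator, background correction, normalization and rule for blanks are not stated by the labels. A natural logarithm would raise every fold to the power 1.44. Of 23473 rows, 16631 had 1 symbol in GEO's platform annotation, and 3947 of these were renamed through RefSeq's table (GRCm38.p6). Rows of a gene were averaged, preferring rows with a value on all arrays (each member had 1 row), and arrays were centred on the median of 10179 genes (python 3.11.15, pandas 2.3.3). Signals were not at hand, so dim and bright rows cannot be told apart and depth cannot be given. The counting was tested on simulated arrays. Members and lists were chosen with earlier results of these data known. Named genes are all members, Tmx1, up to 3 genes at each end of a list and the nearest profiles. Ccl7 and Chil4 were named after their values were seen. Alternatives covered centring, spread, the logarithm, the threshold and list members.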

Additional observations from a re-analysis of the deposited data

Results flagged for a closer look

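The members Clec4f and Csf1r had responses to LPS/GalN of opposite sign in the 2 genotypes, with 1 array a group, so the difference was not tested. The response in wild-type liver compares Cy3 with Cy5 on 1 array, whereas that in TMX-/- liver compares the Cy3 samples of 2 arrays. Clec4f stood at -0.47 in TMX-/- liver (treated minus untreated) and at 0.68 in wild-type liver. Csf1r stood at -0.41 in TMX-/- and 0.0267 in wild-type liver, which was -0.02 without centring, the same sign as in TMX-/- liver (-0.45). Both responses of Csf1r and that of Clec4f in TMX-/- liver lay within the SD of a single row.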

How the results depend on the processing

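Leaving the values as deposited or centring on all rows kept every count within 1.5 times and every median and difference within the SD of a row, as did the choice of row, since each member has 1. Scaling the arrays to the same SD moved the most: 5 members past 2-fold in treated TMX-/- liver (with Chil3 and Mmp12), 1 in treated minus untreated TMX-/- (Vsig4, lower, with none of the 4 higher left) and 2 in treated wild-type minus untreated TMX-/- liver. In treated TMX-/- minus wild-type liver it was still 2, but Marco and Vsig4, both lower, in place of Mmp12 and Cd68. It set the resident medians to 2.35 in treated wild-type, 1.74 in untreated TMX-/- and 0.89 in treated TMX-/- liver. The resident medians of the differences became -0.61 in treated minus untreated TMX-/- and -0.89 in treated TMX-/- minus treated wild-type liver. Resident minus activated became -1.03 in treated TMX-/- minus treated wild-type liver and -3.19 in treated TMX-/- liver. The same scaling reversed Cd5l to -0.35 in treated minus untreated TMX-/- liver. Read as natural logarithms, resident medians were 2.56 in treated wild-type and 1.58 in untreated TMX-/- liver, resident minus activated -7.46 in treated TMX-/- and -3.92 in treated TMX-/- minus wild-type liver, with 4 members past 2-fold there and 2 in treated wild-type minus untreated TMX-/- liver. At 1.5-fold, 5 members passed in untreated TMX-/-, 5 in treated TMX-/- minus wild-type and 2 in treated wild-type minus untreated TMX-/- liver. Of these, Clec4f in treated TMX-/- minus wild-type liver was lower (-0.66) and the others were higher. At 3-fold, 5 passed in treated TMX-/-, 0 in untreated TMX-/- and 2 in treated minus untreated TMX-/- liver. The share of all genes was not counted at equal spread, with natural logarithms or at these thresholds. Without Marco the resident median in treated wild-type liver was 1.34 and resident minus activated -0.94, and with the genes of all macrophages added it was -1.05. Without Chil3, chosen after seeing the data, it was -3.67 in treated TMX-/- liver. No paired analysis was possible because each group has 1 array.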
